A study of Homo sapiens with 10 samples.

Results

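The 8 genes described here encode proteins named as cyclin-dependent kinase inhibitors. They were taken by symbol (CDKN1A, CDKN1B, CDKN1C, CDKN2A, CDKN2B, CDKN2C, CDKN2D and CDKN3), and each of the 8 was among the 28281 gene symbols of both count tables. The study sequenced poly(A) RNA of A549 and H1944, established human cell lines from lung adenocarcinoma. In each line wild-type cells (WT) were compared with cells labelled as an APE1 knockout (KO). APE1, the product of APEX1, is the chief endonuclease of base excision repair, and the study's title links it to urea cycle genes and DNA G-quadruplexes. From A549 cells grown in DMEM there were 3 libraries of WT and 3 of KO. From H1944 cells grown in RPMI1640 there were 2 of each. The labels give no further agent, do not say how the knockouts were made and name no cultures or clones as the source of replicates. The p-values therefore speak of variation among these libraries alone, and part of it may be technical.

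Progress through the cell cycle is driven by kinases that are active only when bound to a cyclin. The INK4 proteins (p16 from CDKN2A, p15 from CDKN2B, p18 from CDKN2C and p19 from CDKN2D) bind CDK4 and CDK6 and keep them from the D-type cyclins. The CIP/KIP proteins (p21 from CDKN1A, p27 from CDKN1B and p57 from CDKN1C) bind complexes of cyclin and kinase, above all those of CDK2. CDKN3 is a phosphatase that removes the activating phosphate from CDK2, is made mainly in dividing cells and shares only its name with the other families. CDKN1A is induced by many kinds of stress, and deletion of the CDKN2A and CDKN2B locus is among the commonest losses in human tumours. A549 is known to carry a homozygous deletion of CDKN2A.

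Levels are in CPM, counts relative to library size after TMM scaling over the 10 libraries. Totals ran from 18314224 to 30219850 counts per library. APEX1 was at 164 to 264 CPM in the A549 WT libraries and 58.3 to 109 in the KO libraries, and at 238 and 239 against 85.8 and 86.3 CPM in H1944, so the KO libraries of both lines held less APEX1 mRNA. The A549 libraries fell into 2 sets, each with both genotypes. WT 1 and KO 65 held RNA28SN4, a ribosomal RNA gene, at 4839 and 5945 counts and at most 0.337% ribosomal RNA in all, whereas the other 4 libraries held 0 counts of it and 6.45% to 14.2% ribosomal RNA, highest in KO 16. A549 values are therefore also given within the sets: KO 65 is set beside WT 1, and each of KO 16 and KO 66 beside the mean of WT 2 and WT 3. The numbers 16, 65 and 66 come from the table and state no genotype, and these columns were taken as KO because no other labelled samples of the line remained. The lung marker NKX2-1 was scarce in both lines, with 0 counts in every H1944 library and a mean of 0.0784 CPM in A549 WT. KRT8 and KRT18, keratins of simple epithelia, were at 5429 and 3948 CPM in H1944 WT.

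Knockout and WT differed most in CDKN1A, which was higher in every KO library of both lines. The other 4 tested genes were lower in H1944 KO. In bulk RNA, fewer cells making a transcript and less transcript per cell cannot be told apart. CDKN2A and CDKN2B had 0 counts in all 10 libraries, and CDKN1C had between 0 and 10. The remaining 5 genes passed the filter on low counts (a minimum of about 10 counts in as many libraries as the smaller group has) in each comparison. By edgeR, which was run on all genes of a line, 5 of 5 tested members changed in H1944, with 1 higher and 4 lower. Of all 16626 genes tested there, 33.2% were called higher and 33.9% lower, so a call by itself was common. In A549 edgeR called 0 of the 5, against 0.00633% of the 15806 genes tested. APEX1 itself was also not called in A549 (log2 fold change -1.51, edgeR adjusted p 0.521). At an unadjusted p under 0.05 there was 1 member, CDKN1A, which DESeq2 also called, and limma-voom called 0. With the A549 library set as a covariate 3 members passed an unadjusted p under 0.05, CDKN1A (log2 fold change 1.32), CDKN2C (-0.51) and CDKN3 (-0.72), and edgeR called 0 of them (adjusted p 0.154, 0.342 and 0.299). The median log2 fold change of the 5 tested members was -0.54 in A549 and -1.11 in H1944, beside 0.02 and -0.01 over all genes.

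**Figure D1:**
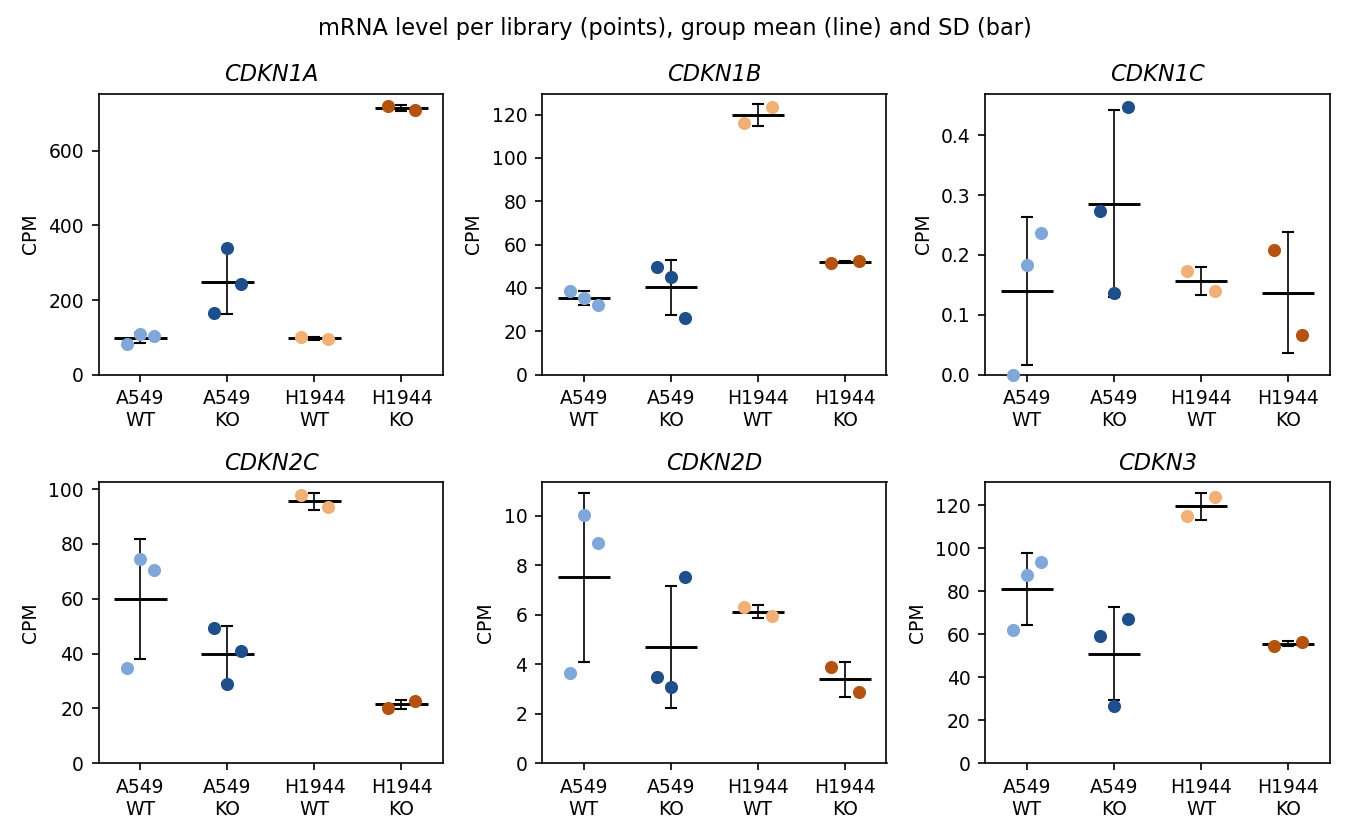
mRNA level (CPM) of the 6 genes with any counts, 1 panel each with its own scale from 0, in A549 and H1944 WT and KO. Points are libraries, horizontal lines group means and bars SD (n = 3 in A549, n = 2 in H1944). CDKN1A in the H1944 KO libraries (709 and 720 CPM) lies above every other library, and the A549 groups overlap for CDKN1B, CDKN1C, CDKN2C, CDKN2D and CDKN3.

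The promoters of the 4 genes with the largest changes in H1944 are shown because the study's question concerns G-quadruplexes, folds in which G-rich DNA stacks in tetrads. Each sequence is the 250 bases before the start site that RefSeq gives for the gene (GRCh38.p14), 5′ to 3′ on the strand of the gene. For CDKN1A that site, and with it the whole window, lies inside the annotated gene, whereas the other 3 windows end just before theirs. Capitals mark a match to the G-quadruplex letter pattern, which is 4 runs of GGG or longer with 1 to 7 bases between them. The positions are chr6:36678464-36678713 for CDKN1A, chr12:12717118-12717367 for CDKN1B, chr1:50960495-50960744 for CDKN2C and chr14:54396757-54397006 for CDKN3, each on the plus strand.
CDKN1A: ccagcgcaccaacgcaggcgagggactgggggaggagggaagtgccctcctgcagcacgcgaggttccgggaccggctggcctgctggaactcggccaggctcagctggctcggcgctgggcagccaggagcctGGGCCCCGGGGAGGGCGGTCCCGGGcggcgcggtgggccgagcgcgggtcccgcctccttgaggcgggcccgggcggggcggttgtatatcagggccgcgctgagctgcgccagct
CDKN1B: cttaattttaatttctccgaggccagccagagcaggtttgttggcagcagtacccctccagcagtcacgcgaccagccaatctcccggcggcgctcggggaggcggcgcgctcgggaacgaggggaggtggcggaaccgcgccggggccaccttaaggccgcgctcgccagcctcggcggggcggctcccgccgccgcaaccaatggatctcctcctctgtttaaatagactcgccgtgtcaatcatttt
CDKN2C: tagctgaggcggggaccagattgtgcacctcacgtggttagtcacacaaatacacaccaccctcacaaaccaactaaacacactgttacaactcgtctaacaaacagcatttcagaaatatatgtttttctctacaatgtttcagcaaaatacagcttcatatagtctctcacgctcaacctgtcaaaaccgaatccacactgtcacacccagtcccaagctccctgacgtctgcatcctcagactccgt
CDKN3: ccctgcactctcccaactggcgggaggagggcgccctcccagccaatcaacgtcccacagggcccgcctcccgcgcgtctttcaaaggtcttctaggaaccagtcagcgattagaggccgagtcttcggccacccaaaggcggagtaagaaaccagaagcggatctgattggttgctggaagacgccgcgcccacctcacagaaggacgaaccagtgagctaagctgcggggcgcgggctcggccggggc
Only the CDKN1A window of these 4 held the pattern on either strand, starting at position -116. Among the members not shown, the CDKN2A window held 3 matches that overlap each other, the first at -163, and CDKN2A had 0 counts in every library. The CDKN2B and CDKN2D windows held no match, and CDKN1C had no entry. Of all 35116 windows of this length in the table, 23.5% held the pattern on either strand. The CDKN1A window also held GGGCGG, the letters of a GC box, 4 times, the first 2 overlapping the capitals and the last 2 sharing a base with each other, and the CDKN1B window held it at -71. It was in neither the CDKN2C nor the CDKN3 window on either strand, and 42.6% of all windows held it. TTTGAA, the letters of the cell cycle homology region, was in the CDKN3 window on the opposite strand at -170 and in 13.3% of all windows on either strand. G and C made up 76.4% of the CDKN1A window and 45.6% of the CDKN2C window, against a median of 58.0% over all windows. The windows of CDKN1A, CDKN1B, CDKN2C and CDKN3 held no TATAAA, which 10.7% of all windows held on either strand. These are letter matches in a short window, and no data on binding or folding were analysed here.

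CDKN1A (gene 1026, chromosome 6, 36676463 to 36687332, GRCh38.p14) encodes p21, which arrests cells in G1 and G2. In H1944 it measured 101 and 94.9 CPM in WT 1 and WT 2 and 720 and 709 CPM in KO 1 and KO 2. Both KO libraries were far above both WT libraries, and replicates lay close together. The rise was 7.26-fold (log2 fold change 2.86, SE 0.038, edgeR adjusted p 7.9e-24), which ranked 350 of 16626 genes from the highest log2 fold change. In A549 it measured 83.5, 109 and 105 CPM in WT 1, WT 2 and WT 3 and 166, 340 and 242 CPM in KO 16, KO 65 and KO 66. Each KO library lay above each WT library, as held for 5.6% of all genes tested, and KO 65 stood well above KO 16. The fitted fold was 2.56 (log2 fold change 1.36, SE 0.27), which edgeR did not call (edgeR adjusted p 0.521), and the exact 2-sided permutation p was 0.1, the smallest that 3 against 3 libraries allow. DESeq2 did call it (log2 fold change 1.32, adjusted p 0.00464). Within the library sets KO 65 was higher by 2.03 on the log2 scale, KO 66 by 1.18 and KO 16 by 0.63. Over the 4 libraries without RNA28SN4 counts the fitted change was 0.95 (edgeR adjusted p 0.44). DINOL, a long non-coding gene that overlaps the CDKN1A locus, had at most 27 counts in a library.

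CDKN1B (chromosome 12, 12717368 to 12722369) encodes p27, which holds CDK2 inactive in resting cells. It moved apart from CDKN1A in H1944. There it measured 116 and 123 CPM in WT and 51.6 and 52.3 CPM in KO, with no overlap. The fall was 2.32-fold (log2 fold change -1.22, SE 0.045, edgeR adjusted p 6.4e-16). In A549 it measured 38.7, 35.4 and 32.2 CPM in WT 1, WT 2 and WT 3 and 49.9, 45.1 and 26.0 CPM in KO 16, KO 65 and KO 66. The KO libraries lay on both sides of the WT libraries, and the log2 fold change was 0.22 (95% interval -0.45 to 0.88, edgeR adjusted p 0.995; exact permutation p 0.7). Within the sets KO 65 stood at 0.22, KO 16 at 0.56 and KO 66 at -0.38, with no common direction. H1944 WT cells held 3.38 times as much CDKN1B mRNA as A549 WT cells (log2 difference A549 minus H1944 -1.76, SE 0.15, edgeR adjusted p 0.0016). After the knockout the level in H1944 (51.9 ± 0.494 CPM, SD, n = 2) was nearer to that of A549 KO (40.3 ± 12.6 CPM, SD, n = 3).

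CDKN1C, the imprinted gene of p57 (chromosome 11, 2883218 to 2885775), was at the edge of detection. It had 0, 4 and 5 counts in A549 WT 1, WT 2 and WT 3 and 6, 3 and 10 in KO 16, KO 65 and KO 66. In H1944 it had 4 and 3 counts in WT and 6 and 2 in KO. The highest level was 0.447 CPM, in A549 KO 66. The gene did not pass the filter on low counts in any comparison, and a difference was not detectable at this depth.

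CDKN2C (chromosome 1, 50960745 to 50974634) encodes p18 and was the most abundant INK4 mRNA. In H1944 it measured 97.8 and 93.4 CPM in WT and 20.2 and 22.7 CPM in KO, with no overlap. The fall of 4.48-fold (log2 fold change -2.16, SE 0.060, edgeR adjusted p 2.9e-18) was the largest among the members and ranked 753 of 16626 genes from the lowest log2 fold change. In A549 it measured 34.6, 74.4 and 70.6 CPM in WT 1, WT 2 and WT 3 and 49.5, 28.9 and 40.9 CPM in KO 16, KO 65 and KO 66. The groups overlapped through WT 1, the lowest WT library, and the log2 fold change of -0.54 was not called (95% interval -1.35 to 0.26, edgeR adjusted p 0.995; exact permutation p 0.3). Within the sets each KO library was lower, with log2 differences of -0.26 (KO 65), -0.55 (KO 16) and -0.82 (KO 66). WT 1 itself lay below the mean of WT 2 and WT 3, at a log2 difference of -1.07, which is larger than any of these.

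CDKN2D (chromosome 19, 10566460 to 10568979), the gene of p19, was low throughout. In H1944 it measured 6.29 and 5.92 CPM in WT and 3.89 and 2.88 CPM in KO. It fell 1.82-fold (log2 fold change -0.86, SE 0.19, edgeR adjusted p 0.00048), on 87 to 145 counts per library. In A549 it measured 3.63, 10.02 and 8.87 CPM in WT 1, WT 2 and WT 3 and 3.46, 3.09 and 7.52 CPM in KO 16, KO 65 and KO 66. The groups overlapped, and the log2 fold change was -0.64 (95% interval -1.79 to 0.52, edgeR adjusted p 0.995; exact permutation p 0.2). Within the sets KO 65 stood at -0.23, KO 66 at -0.33 and KO 16 lowest at -1.44.

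CDKN3 (chromosome 14, 54397007 to 54420218) measured 115 and 124 CPM in H1944 WT and 54.6 and 56.4 CPM in KO. The fall was 2.16-fold (log2 fold change -1.11, SE 0.047, edgeR adjusted p 4.9e-15). In A549 it measured 61.8, 87.3 and 93.7 CPM in WT 1, WT 2 and WT 3 and 59.3, 26.6 and 67.0 CPM in KO 16, KO 65 and KO 66. WT 1 lay between KO 16 and KO 66, so the groups overlapped, and the log2 fold change was -0.63 (95% interval -1.49 to 0.24, edgeR adjusted p 0.995; exact permutation p 0.2). Within the sets each KO library was lower, with log2 differences of -1.22 (KO 65), -0.61 (KO 16) and -0.43 (KO 66).

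The H1944 calls of CDKN1A, CDKN1B and CDKN2C held in a fit of all 10 libraries, in which the lines share 1 estimate of the spread. In that fit CDKN2D and CDKN3 were not called (edgeR adjusted p 0.355 and 0.0898) at almost the same fold changes.

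**Figure D2:**
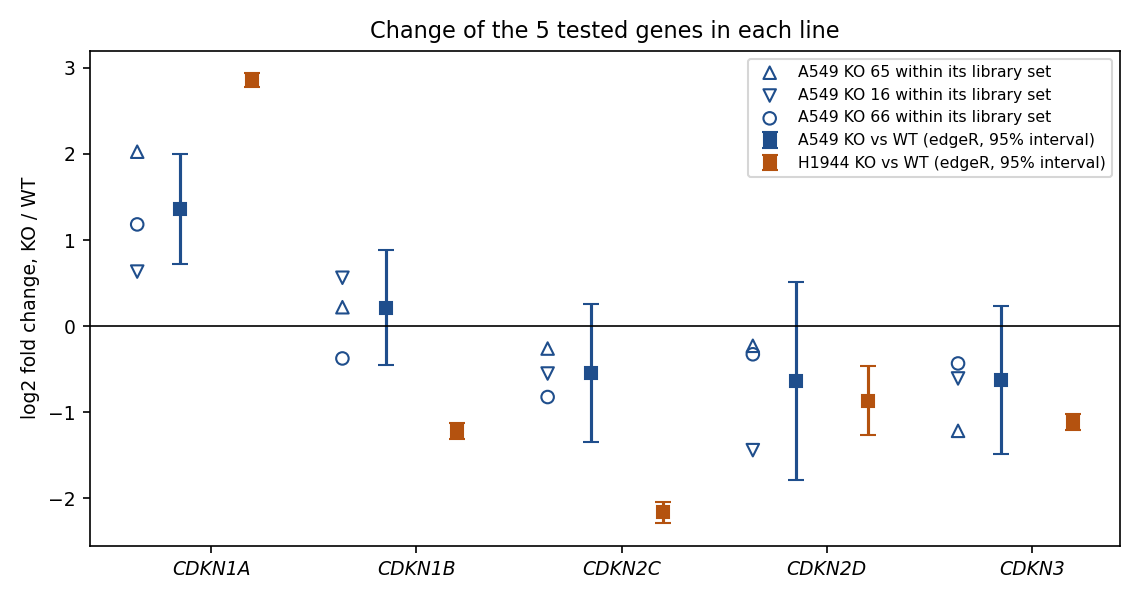
Log2 fold change of KO over WT for the 5 tested genes. Squares are the edgeR estimates with 95% intervals for A549 (blue) and H1944 (orange), and open symbols are the 3 A549 KO libraries against the WT libraries of their own set. CDKN1A lies above 0 in both lines and CDKN1B is near 0 in A549 (0.22) and at -1.22 in H1944.

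Whether the lines differed in their change was tested in 1 fit of all 10 libraries. Of 17677 genes 6.95% were called, and 2 of the 5 tested members were among them, both close to the threshold. The change of CDKN1A was smaller in A549 than in H1944 (A549 minus H1944 -1.53 on the log2 scale, 95% interval -2.38 to -0.67, edgeR adjusted p 0.0452). That of CDKN1B was higher in A549 by 1.41 (95% interval 0.61 to 2.20, edgeR adjusted p 0.0478). Without any 1 of the 4 H1944 libraries neither was called, with edgeR adjusted p between 0.151 and 0.197. CDKN1A was also not called without A549 WT 2, WT 3 or KO 66 (0.106, 0.1 and 0.0602), and CDKN1B without WT 2, WT 3, KO 16 or KO 65 (0.106, 0.113, 0.079 and 0.0889). CDKN2C differed by 1.58 (95% interval 0.52 to 2.64) and was not called by edgeR (adjusted p 0.0833), but was by DESeq2 (adjusted p 0.0182). For CDKN3 the difference was 0.45 (95% interval -0.65 to 1.56, edgeR adjusted p 0.644) and for CDKN2D 0.19 (95% interval -1.38 to 1.76, edgeR adjusted p 0.922), intervals wide enough to hold differences of more than 2-fold.

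Before the knockout the 2 lines had nearly equal mean levels of CDKN1A, while CDKN1B was higher in H1944. Line, growth medium and deposited table cannot be told apart in this comparison. All 4 H1944 libraries had RNA28SN4 counts, as did A549 WT 1 but not WT 2 and WT 3. In the comparison 41.2% of 16857 genes were called. CDKN1A was at 98.97 ± 13.6 CPM in A549 WT (SD, n = 3) and 97.8 ± 4.09 CPM in H1944 WT (SD, n = 2), a log2 difference of 0.02 (95% interval -0.41 to 0.44, edgeR adjusted p 0.944). The log2 differences of CDKN2C, CDKN2D and CDKN3, A549 minus H1944, were -0.68, 0.29 and -0.56 and were not called (edgeR adjusted p 0.173, 0.629 and 0.0881). These values rested on A549 WT 1: without it CDKN1A, CDKN2C, CDKN2D and CDKN3 differed by 0.12, -0.40, 0.63 and -0.40, all called (edgeR adjusted p 0.0154, 7.5e-08, 0.00046 and 7.0e-08). Without WT 1 the lines and the library sets cannot be told apart. CDKN1B was the 1 member called in the full comparison.

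Levels of different genes were compared per kilobase of exon (RPKM, from CPM and the union of GENCODE 29 exons). In A549 WT the order was CDKN3 (44.1 ± 9.18 RPKM), CDKN1A (32.4 ± 4.45), CDKN2C (18.04 ± 6.62), CDKN1B (12.6 ± 1.15) and CDKN2D (4.996 ± 2.27; SD, n = 3 each). The ranges of CDKN3 and CDKN1A overlapped there, and so did those of CDKN2C and CDKN1B. In H1944 WT it was CDKN3 (65.04 ± 3.47 RPKM), CDKN1B (42.6 ± 1.77), CDKN1A (32.05 ± 1.34), CDKN2C (28.8 ± 0.929) and CDKN2D (4.06 ± 0.174; SD, n = 2 each), with no overlap between neighbours. In the KO libraries of both lines CDKN1A came first, at 81.7 ± 28.7 RPKM in A549 (SD, n = 3) and 234 ± 2.49 RPKM in H1944 (SD, n = 2). By group mean CDKN3 came second in both, at 27.8 ± 11.7 and 30.2 ± 0.671 RPKM. Its A549 KO range overlapped that of CDKN1B, which lay above it in KO 65 (16.03 against 14.5 RPKM).

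CDKN1A made up 27.7% to 31.2% of the summed per-length level of the 8 genes in the A549 WT libraries and 44.6%, 72.9% and 55.7% in KO 16, KO 65 and KO 66. In H1944 its share was 19.3% and 17.8% in WT and 80.6% and 80.01% in KO. The sum itself was 170.7 and 174.6 RPKM in H1944 WT and 293 and 291 in KO. In A549 it was 87.7 to 125 RPKM in WT and 122 to 153 in KO, so these ranges overlapped. The summed level was thus higher in both H1944 KO libraries than in either WT library, with CDKN1A gaining while the other 4 tested genes fell.

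**Figure D3:**
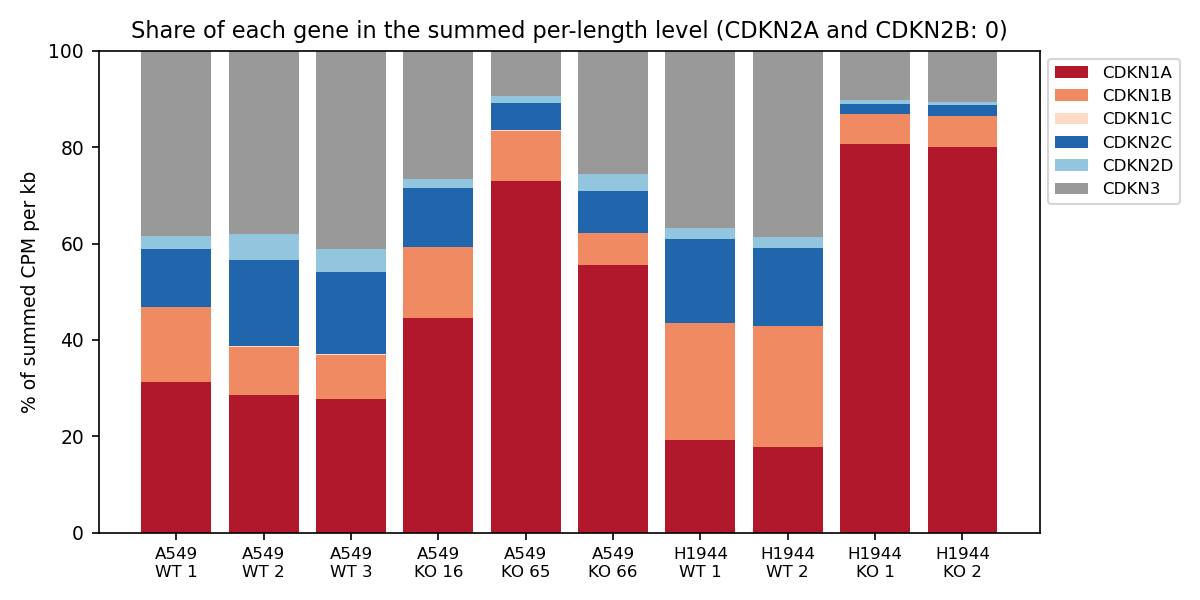
Share of each gene (percent) in the summed CPM per kilobase of the 8 genes, 1 bar per library. CDKN2A and CDKN2B are 0 throughout and CDKN1C is too low to see; CDKN1A takes 80.01% and 80.6% in the H1944 KO libraries and 17.8% and 19.3% in the WT libraries.

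CDKN2A (chromosome 9, 21967752 to 21995324) encodes p16 and, from another reading frame, ARF. The counts do not separate the 2 products. CDKN2B lies beside it (22002903 to 22009313), and CDKN2B-AS1 is an antisense gene that overlaps both. All 3 genes had 0 counts in each of the 10 libraries, out of 132494096 counts in A549 and 102069917 in H1944. A count of 0 allows up to 3 counts in a library, or 0.0993 to 0.164 CPM, for counting error only. No fold between lines or genotypes can be given for them.

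MTAP, the methionine salvage gene that ends 26.6 kb from CDKN2A, was counted in both lines. Counts per gene do not show which of its exons were read, or whether the gene is whole. It had 138 to 211 counts in the A549 WT and 168 to 194 in the A549 KO libraries, and 738 to 947 in the H1944 libraries. The WT mean was 8.25 ± 1.88 CPM in A549 (SD, n = 3) and 34.7 ± 0.334 CPM in H1944 (SD, n = 2), which was 4.20 times as much (log2 difference A549 minus H1944 -2.07, SE 0.23, edgeR adjusted p 0.00338). In H1944 MTAP fell slightly after the knockout (log2 fold change -0.18, SE 0.067, edgeR adjusted p 0.0203), while in A549 its log2 fold change was 0.04 and was not called (edgeR adjusted p 0.995).

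On the other side the nearest gene with any counts was DMRTA1, 451.5 kb away. It had 15 to 55 counts in the A549 libraries and 0 in all H1944 libraries. LINC01239, 651 kb away, had 4 to 9 counts in A549 and 0 in H1944. KLHL9, farther out on the MTAP side, had 550 to 1190 counts in A549 and 1046 to 1613 in H1944. Within 2500 kb of CDKN2A the tables held 37 genes, of which 20 had 0 counts in all A549 libraries and 23 in all H1944 libraries, 17 of them shared, many of them interferon genes. Read counts alone cannot tell a deleted gene from a silent one.

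**Figure D4:**
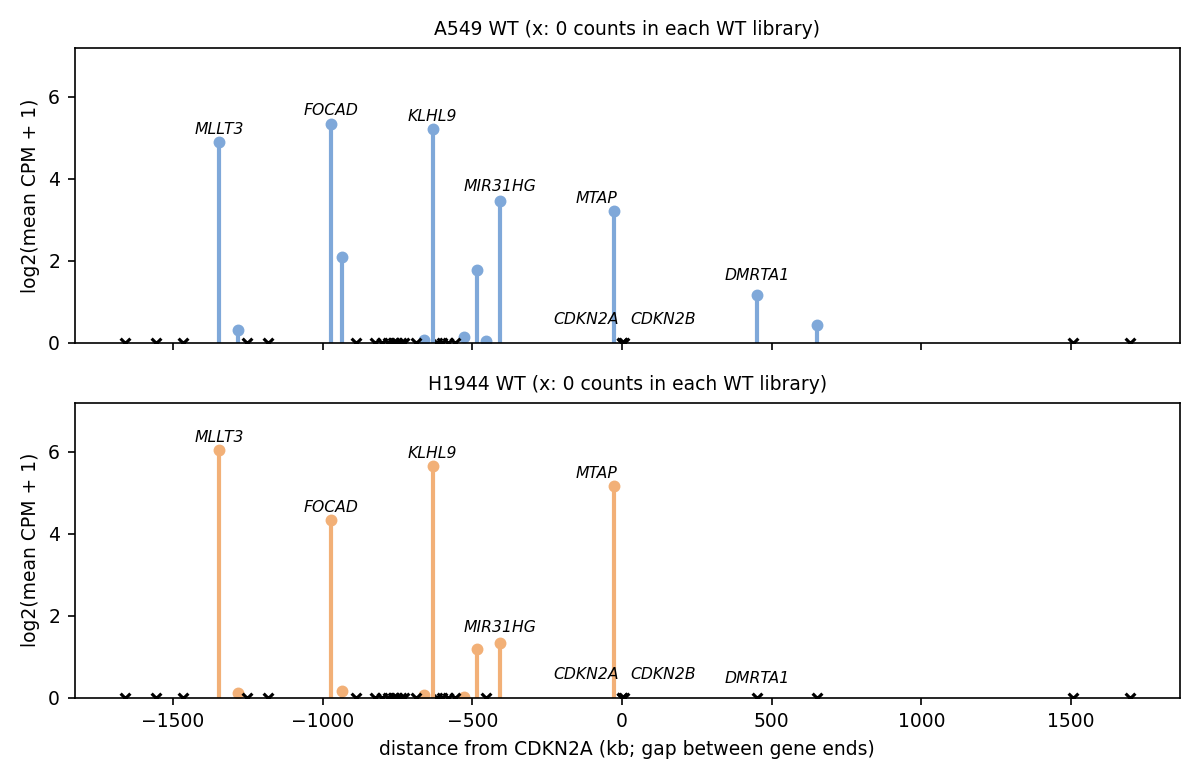
Mean WT level, as log2(mean CPM + 1), of each gene within 2500 kb of CDKN2A by its distance from that gene in kb, A549 above (n = 3) and H1944 below (n = 2). Points on stems are genes with counts and crosses genes with 0 counts in each WT library of the line: CDKN2A and CDKN2B are crosses in both panels, MTAP (means of 8.25 and 34.7 CPM) is a point in both, and DMRTA1 is a cross in H1944.

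The partners of the inhibitors were followed in lists of genes by role. For each list the count called by edgeR in H1944 is read against the 33.2% called higher and 33.9% called lower among all genes. In A549 edgeR and limma-voom called 0 genes of every list.

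Proliferation markers were lower in H1944 KO. Of 21 tested, 20 fell in H1944 and 0 rose, with a median log2 fold change of -0.63. The largest falls among the named genes were CENPF, a kinetochore protein, at -1.50, MKI67 at -1.37, TOP2A at -1.20 and the replication helicase genes MCM4 and MCM7 at -1.12 and -1.10. MKI67 went from 270 ± 9.87 to 105 ± 0.414 CPM there (SD, n = 2), and in A549 the WT level of 476 ± 57.9 CPM stood beside 452 ± 168 CPM for KO (SD, n = 3). In A549 the median was -0.22, none of the 21 log2 fold changes was above 0, and 1 passed an unadjusted p under 0.05. The named marker with the smallest adjusted p there was RRM2, a subunit of ribonucleotide reductase, at -0.72 (edgeR adjusted p 0.762). DESeq2 called 0.

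The INK4 and CIP/KIP proteins bind G1 cyclins and kinases. The list of these, which also holds the phosphatase gene CDC25A, was mixed. Of 8 tested in H1944, 4 rose and 3 fell (median log2 fold change 0.18). CCND1, the D-type cyclin that partners CDK4 and CDK6, rose from 130.5 ± 1.21 to 557 ± 2.86 CPM (SD, n = 2; log2 fold change 2.08, edgeR adjusted p 3.85e-22). CCND3 rose by 0.67, CCNE1 by 0.74 and CDK4 by 0.38, whereas CCNE2 fell by 1.06 on the log2 scale. In A549 CCND1 was at 472 ± 18.9 CPM before and 628 ± 184 CPM after the knockout (SD, n = 3; log2 fold change 0.45, edgeR adjusted p 0.995). CCNE1 had a log2 fold change of 0.50 there. In the test of the difference between lines CCND1 was the 1 of the 8 called, against 6.95% of all genes. Its difference was -1.67 (A549 minus H1944, edgeR adjusted p 0.0168). The list of cyclins and kinases of S phase, G2 and mitosis also holds CDC25B, CDC25C, CKS1B and CKS2. Its genes fell in 10 of 11 cases in H1944 (median -0.67). CCNA2 fell by 0.96 on the log2 scale, CDK1 by 0.88, WEE1 by 0.83 and CCNB1 by 0.65. CDC25B, a phosphatase that activates CDK1, was the 1 that rose, by 0.80. In A549 the median of the 11 was -0.29. WEE1 was the 1 of the 11 called for the difference between lines (A549 minus H1944 1.13, edgeR adjusted p 0.0347).

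Of the RB family, E2F and DP genes, the effectors downstream of these kinases, 13 were tested. In H1944 8 fell and 1 rose (median log2 fold change -0.30). E2F8, E2F7 and RBL1 fell by 1.61, 1.26 and 1.00 on the log2 scale and RB1 by 0.69, and E2F4 rose by 0.70. E2F1, named after its values were seen, was at -0.07 and was not called (edgeR adjusted p 0.416). In A549 the median was -0.14.

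Genes that act on the CIP/KIP proteins or genes moved both ways in H1944. Of 15 degradation genes 5 rose and 5 fell (median -0.01). DTL, which directs p21 to the CUL4 ubiquitin ligase, fell by 1.01 on the log2 scale, SKP2, which directs p27 to degradation, fell by 0.34, and CUL4B rose by 0.63. Of 21 genes listed as regulators of CIP/KIP transcription, directly or not, 8 rose and 9 fell (median -0.06). MDM2 rose by 1.12, KLF6 by 0.94 and SMAD3 by 0.70, and SMAD4, SMAD2 and MDM4 fell by 1.05, 0.75 and 0.80. Among these 21 in A549, 3 passed an unadjusted p under 0.05 and DESeq2 called 2 lower. SMAD2 had the smallest adjusted p of them there (log2 fold change -0.85, edgeR adjusted p 0.521). MYC, a repressor of CDKN1A, had a log2 fold change of -0.52 in A549 (181 ± 4.89 CPM in WT and 123.5 ± 5.75 in KO, SD, n = 3; edgeR adjusted p 0.673). It rose by 0.45 in H1944. In the test of the difference between lines MYC was the 1 of the 21 called, against 6.95% of all genes (A549 minus H1944 -0.99, edgeR adjusted p 0.0103).

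The Polycomb genes and other regulators of the INK4 locus were also mixed, with 9 of 26 higher and 8 lower in H1944 (median -0.01). EZH2, the methyltransferase of Polycomb complex PRC2, fell by 0.72 on the log2 scale and SUZ12, its partner, by 0.47. TBX2, a repressor of CDKN2A and CDKN1A, rose by 3.11, ETS1 by 1.04 and JARID2 by 0.93. In A549 TBX2 had a log2 fold change of -0.17 and was not called (edgeR adjusted p 0.995). For the difference between lines TBX2 was the 1 of the 26 called, against 6.95% of all genes. Its difference was -3.30 (A549 minus H1944, edgeR adjusted p 0.00703). The related TBX3 had the smallest adjusted p of the list in A549 (log2 fold change 1.604, edgeR adjusted p 0.859).

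**Figure D5:**
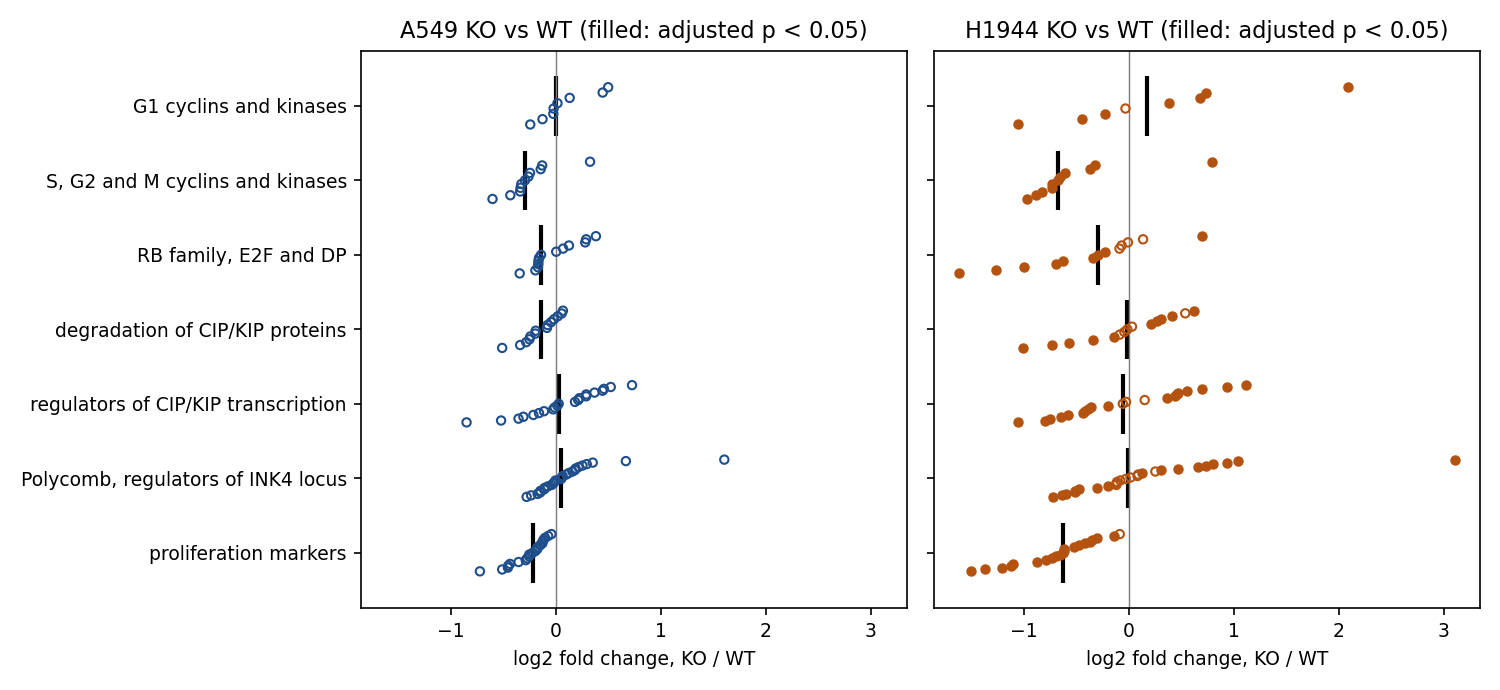
Log2 fold change of KO over WT for each tested gene of 7 lists, A549 left and H1944 right, with a vertical bar at each list's median and filled points for genes past an edgeR adjusted p of 0.05. The proliferation markers lie below 0 in both lines (median -0.63 in H1944 and -0.22 in A549), and the G1 cyclins and kinases lie on both sides of it.

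Markers of cell identity moved beside the inhibitors in H1944. CDH1 and EPCAM, adhesion proteins of epithelia, fell in H1944 (log2 fold change -4.72 and -6.21), while KRT8 and KRT18 rose by 0.81 and 0.98. Of 8 tested epithelial markers 2 rose and 5 fell, and their summed level was 9642 to 9814 CPM in WT and 17262 to 17652 in KO because the 2 keratins dominate it. SFTPC and SFTA2 were at 0 in the KO libraries. Squamous markers summed to 10.1 to 11.2 CPM in WT and 1.597 to 2.18 in KO. Leukocyte markers summed to 29.6 to 30.8 CPM in WT and 54.3 to 56.5 in KO. CD3E and CD3D were at 0 in both groups and PTPRC also in KO. Only 2 of the 7 leukocyte markers passed the filter in H1944, and 1 of them was called higher. Fibroblast markers summed to 13.7 to 15.6 CPM in WT and 11.9 to 14.04 in KO, where COL1A2 and PDGFRA were at 0. Endothelial markers stayed at or under 1.65 CPM. In A549 the epithelial sum was 10438 to 26621 CPM in WT and 11746 to 25804 in KO, squamous markers 17.5 to 25.4 and 37.3 to 98.4, fibroblast markers 5.40 to 8.30 and 10.98 to 17.1 with COL1A2 and DCN at 0, leukocyte markers 36.98 to 50.1 and 39.98 to 44.3, and endothelial markers at most 2.50. The part of these shifts in the inhibitor values was not tested.

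Genes whose levels ran most like those of a member were found by Pearson r of log2 CPM, centred within each line, over the 10 libraries, among 10869 genes (10870 for CDKN2D) at 5 CPM or more on average in both lines. The points come from libraries that differ in genotype, depth and library set, so r is a description. CDKN1A ran closest to MFGE8 (r 0.994), ATXN7L3 (0.991) and PYCARD (0.986), the gene of the inflammasome adaptor ASC. MFGE8, which encodes a secreted glycoprotein, had log2 fold changes of 2.71 in H1944 and 1.05 in A549. Those of PYCARD were 3.15 and 1.61, and those of ATXN7L3 only 0.38 and 0.19. Pearson r does not weigh the size of a change. CDKN1B ran closest to FGD4 (0.994), TMED2 (0.987) and MFSD6 (0.987), and FGD4 had log2 fold changes of -2.46 in H1944 and 0.71 in A549. CDKN2C ran closest to MPC2 (0.987), a subunit of the mitochondrial pyruvate carrier, ZWINT (0.986), a kinetochore gene, and AGMAT (0.983). CDKN3 ran closest to HAUS4 (0.989), a subunit of the augmin complex of the spindle, RBM23 (0.985) and HMGB3 (0.980). CDKN2D ran closest to ECSIT (0.993), NDUFS7 (0.985) and NOC4L (0.983).

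Among the members, CDKN2C and CDKN3 ran together (r 0.86), and both ran against CDKN1A (-0.88 and -0.83). CDKN1B ran against CDKN1A less closely (-0.70); its A549 KO values lay on both sides of WT. CDKN2D ran with CDKN3 (0.81) and CDKN2C (0.73) and hardly with CDKN1B (0.02).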

How the data were processed

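Poly(A) RNA-seq libraries were counted per gene. Per the submitters' processing notes, the authors used Trim Galore 0.5.0, HISAT2 2.1.0, featureCounts 1.6.4 and DESeq2 with build hg38. The annotation, the strand setting and the treatment of reads with several matches are not given in the sources used here. The deposited tables hold raw counts, 1 table per line. All else was computed from these counts: TMM scaling, CPM and edgeR 4.0.16 robust quasi-likelihood tests (filterByExpr with a minimum count of 10, Benjamini-Hochberg adjustment over all genes tested, threshold 0.05) within each line, between the WT groups, and for the difference of changes in all 10 libraries. The tests were tried on simulated counts. Intervals use the quantile of edgeR's F test, and SE is the size of the log2 fold change divided by the root of F. DESeq2 1.42.0 and limma 3.58.1 in R 4.3.3 were alternatives, beside other filters, sample sets and left-out libraries. Totals of 18314224 to 30219850 counts set a floor of 3 counts. The floor covers counting error only, while the intervals include the spread between libraries. For H1944 the labels do not state whether the replicate numbers pair libraries, and the main fit did not pair them. The 8 genes and the lists were chosen with earlier results of these data known. Named list genes are up to 6 with the smallest adjusted p in H1944 and up to 4 in A549. Promoters came from a RefSeq table (GRCh38.p14) that held 7 of the 8 genes. Results that need certain genes are not reported here.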

Additional observations from a re-analysis of the deposited data

Results flagged for a closer look

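A test of the difference between lines, in 1 edgeR fit of all 10 libraries, called 2 of the genes. The log2 change of CDKN1A in A549 minus that in H1944 was -1.53 (edgeR adjusted p 0.0452): CDKN1A was higher in 3 of 3 A549 and 2 of 2 H1944 KO libraries than in any WT library of its line, and the change in H1944 was larger. The log2 change of CDKN1B in A549 minus that in H1944 was 1.41 (edgeR adjusted p 0.0478), with 2 of 2 H1944 KO libraries below WT and the A549 KO libraries on both sides of WT. Leaving out each library in turn gave adjusted p between 0.0121 and 0.191 for CDKN1A and between 0.00255 and 0.197 for CDKN1B.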

How the results depend on the processing

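In A549 the single gene called higher by edgeR became 81 higher and 44 lower with DESeq2, which also called CDKN1A (log2 fold change 1.32, adjusted p 0.00464), 2 higher without a filter on low counts, and 10 higher and 6 lower with all 10 libraries in 1 fit. It became 0 higher with only the 4 libraries without RNA28SN4 counts and 0 without any 1 library, and the library set as a covariate gave 1 lower. In H1944 all 10 libraries in 1 fit gave 1177 higher and 1345 lower genes in place of 5522 and 5642, and the calls of CDKN2D (-0.86, edgeR adjusted p 0.355) and CDKN3 (-1.11, 0.0898) were lost. Leaving out 1 H1944 library leaves a lone sample in its arm that is assumed to vary like the other group, and no call of a member was lost. With the replicate block, edgeR called 5568 genes higher and 5660 lower in H1944, CDKN1A was at 2.86, and no member's call changed; equally numbered libraries did not deviate together (r 0.0128 across 16626 genes, 2 pairs). In A549 no fit with the replicate number as a block could be made, because the KO columns carry no number shared with WT.

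For the difference between lines, DESeq2 gave 1262 higher and 1056 lower genes in place of 725 and 503 and called CDKN2C (1.57, adjusted p 0.0182). CDKN1B lost its call with limma-voom (1.35, adjusted p 0.0502) and without a filter (1.39, edgeR adjusted p 0.0521). Leaving out 1 library gave 249 to 1606 higher and 133 to 1286 lower genes, and log2 differences of -1.81 to -1.30 for CDKN1A, 1.22 to 1.64 for CDKN1B and 1.31 to 1.77 for CDKN2C, which was called without A549 WT 1. CDKN2D ran from -0.33 to 0.45, changing sign without A549 WT 1 (-0.14), KO 66 (-0.33) or H1944 KO 2 (-0.019). Between the WT groups, leaving out A549 WT 1, the A549 WT library with RNA28SN4 counts, gave 6733 higher and 7118 lower genes in place of 3373 and 3570 and called CDKN1A (0.12), CDKN2C (-0.40), CDKN2D (0.63) and CDKN3 (-0.40). Leaving out any 1 library gave 609 to 6733 higher and 918 to 7118 lower genes, and log2 differences of -0.86 to -0.40 for CDKN2C, 0.037 to 0.63 for CDKN2D and -0.67 to -0.40 for CDKN3. CDKN1A ran from -0.0503 to 0.12, changing sign without A549 WT 2 (-0.0503), A549 WT 3 (-0.016) or H1944 WT 2 (-0.032). The cause was not tested for any of these. Depth limits CDKN1C, with 0 to 10 counts, and the genes at 0.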
